A study of Mus musculus with 8 samples.

Results

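The 10 genes described here are the cadherins Cdh1 and Cdh2, the transcription factors Zeb1, Zeb2, Snai1, Snai2, Twist1 and Ovol1, and the splicing factors Esrp1 and Esrp2. They were chosen by gene symbol from the 24419 genes of the count table, and all 10 were found and passed the filter on low counts. Cdh1, Esrp1, Esrp2 and Ovol1 were taken as the 4 epithelial genes and the other 6 as the mesenchymal genes. RNA was measured in bulk in 8 libraries, 2 from each of 4 engineered mouse tumor models of the endometrium. Each model started from uterus organoids of CAG-Cas9-EGFP mice, which express Cas9 under the ubiquitous CAG promoter, transplanted into the uterus of female BALB/cA-nu mice, a T-cell-deficient strain, aged 8 weeks. In all 4 models the edits include an sgRNA against Trp53. TPM also overexpresses Myc. TPMCa carries Pik3ca E545K cDNA on top of the TPM changes, and TPMR1 carries an sgRNA against Pik3r1 on top of them, so both alter a subunit of the lipid kinase PI3K. TPK lacks the introduced Myc, which is not its only difference from TPM. The labels describe tumor organoids, whereas in the methods the material is tissue of the tumors, collected some 2 months following the transplantation. Per the captions, the libraries of a model came from 2 mice, so the p-values rest on the spread between 2 animals per model.

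Cadherins join neighbouring cells by binding the same cadherin on the next cell and are held to the actin cytoskeleton by catenins. Epithelia, including the glands of the endometrium, use E-cadherin, the product of Cdh1, whereas many mesenchymal cells use N-cadherin, the product of Cdh2. The exchange of the former for the latter is called the cadherin switch. ZEB1, ZEB2, SNAIL (Snai1) and SLUG (Snai2) are zinc finger repressors that bind E-box sequences of the Cdh1 promoter, and TWIST1 is a basic helix-loop-helix factor that acts beside them. ESRP1 and ESRP2 direct epithelial exon choices, and OVOL1 represses Zeb1 in epithelial cells.

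The ZEB factors and the microRNAs of the miR-200 family repress each other, so the family's sequences are shown first, with the seed (bases 2 to 8, which pair with the target) in capitals. They come from RefSeq on GRCm38.p6, and all 5 mature 3p forms were found. The first 3 share the seed AAUACUG and the last 2 the seed AACACUG. Mir200b lies at chr4:156055685-156055706, Mir429 at chr4:156053916-156053937 and Mir200a at chr4:156054911-156054932, and Mir200c lies at chr6:124718324-124718346 and Mir141 at chr6:124717917-124717938, all on the minus strand.
miR-200b-3p: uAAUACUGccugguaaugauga
miR-200c-3p: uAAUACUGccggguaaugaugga
miR-429-3p: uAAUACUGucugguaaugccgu
miR-200a-3p: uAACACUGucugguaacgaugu
miR-141-3p: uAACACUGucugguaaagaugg

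The Zeb2 mRNA holds several exact matches to these seeds. The longest annotated 3' UTR of Zeb2 (GENCODE M21, 4941 bases) was searched on the transcript strand, and it held CAGTATT at 5 places and CAGTGTT at 4, with no overlap. Of the 1094 genes with a 3' UTR between 0.8 and 1.25 times as long, 38.3% held CAGTATT at least once and 0.274% at least 5 times, and 51.1% held CAGTGTT at least once and 1.74% at least 4 times. Below are 2 stretches for each seed with the match in capitals, to show what the seeds above would pair with. They lie on the minus strand of GRCm38 in the 3' UTR at chr2:44988173-44988194, chr2:44987746-44987767, chr2:44988357-44988378 and chr2:44987784-44987805, in that order.
Zeb2, base 393 of the 3' UTR: gcactaccatacatCAGTATTt
Zeb2, base 820 of the 3' UTR: tgaagcacccgtgtCAGTATTa
Zeb2, base 209 of the 3' UTR: gcaaaaattttgtaCAGTGTTa
Zeb2, base 782 of the 3' UTR: ctttgcaccagcttCAGTGTTa
Such a match is a description of the sequence and not a measured site.

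The libraries held between 15748396 and 26943611 counts, so that the floor of 3 counts equals between 0.116 and 0.198 CPM (counts scaled by TMM to a common library total), which covers counting error only. Myc was at 772 and 1767 CPM in TPM, 3075 and 324 in TPMCa, 606 and 466 in TPMR1, and 154 and 92.8 in TPK, which lacks the introduced copy. Trp53 RNA was at 33.2 to 131 CPM across the libraries, and Pik3r1 RNA in TPMR1, at 101 and 51.3 CPM, overlapped that of TPM at 99.6 and 188 CPM. An sgRNA edit need not lower the RNA of its gene, so these levels do not check the edits. Pik3ca RNA, which the introduced cDNA could raise, was at 89.9 and 83.3 CPM in TPMCa, 76.6 and 60.9 CPM in TPM and 70.2 and 73.2 CPM in TPMR1. TPMCa lay above TPM without overlap, but the log2 fold change of 0.33 (SE 0.24, adjusted p = 0.436, edgeR) did not pass, so a marked excess from the cDNA was not seen in these counts. The 7 general epithelial markers (Epcam, Krt7, Krt8, Krt18, Krt19, Krt5 and Krt14) summed to between 5063 and 16340 CPM in the TPM and TPK libraries but to between 20.2 and 72.0 CPM in TPMCa and between 7.43 and 28.0 CPM in TPMR1, where Krt5 had no read in either library. All 7 were called lower in TPMR1 than in TPM and 5 of 7 in TPMCa, so RNA of the defining markers of epithelium was scarce in 4 libraries labelled as tumor organoids. The paper describes well-differentiated glands in stained sections of TPMCa and TPMR1 tumors. How those sections relate to the RNA measured here was not tested. In bulk RNA, fewer epithelial cells and less epithelial RNA per cell cannot be told apart, and this holds for each result below. Replicates were least alike in TPMR1, where 2701 genes (17% of those tested) lay over 4-fold apart, against 749 in TPM, 972 in TPK and 1293 in TPMCa.

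Cdh1 was the most abundant of the 10 genes per kb of exon in TPM and TPK and among the least abundant in TPMR1. Levels of different genes were compared as log2 CPM per kb. The length is the union of all annotated exons, which can exceed that of the transcript made, so the order between genes is approximate. On this scale Cdh1 averaged 7.34 in TPM (SD 0.12, n = 2), 7.41 in TPK, 0.44 in TPMCa and -3.24 in TPMR1. In TPM the mean levels ran from Cdh1 through Esrp1 (5.09), Esrp2 (4.90), Ovol1 (4.02), Snai2 (3.09), Twist1 (2.92), Snai1 (2.57), Zeb1 (0.75) and Zeb2 (0.42) to Cdh2 (-1.53). Esrp1 and Esrp2 overlapped between libraries, as did Snai2, Twist1 and Snai1, and Zeb1 and Zeb2, and the wide span of Twist1 took in Ovol1. In TPMCa the order began with Snai1 (5.11) and Twist1 (4.90), followed by Zeb2 (2.65), Cdh2 (2.55) and Zeb1 (2.15), with all 4 epithelial genes below Snai2 (1.25). Snai1 and Twist1 overlapped there, and so did Zeb2 and Cdh2. In TPMR1 it began with Twist1 (4.79), Snai1 (2.69), Zeb2 (2.68), Zeb1 (2.25) and Cdh2 (1.57), Cdh1 stood below Ovol1 (-1.86), and Esrp1, without reads, stood last. The libraries of Snai1 spanned those of Zeb2 and Zeb1. Those of Cdh2 spanned Zeb2, Zeb1 and Snai2 and overlapped Snai1. The libraries of Esrp2 spanned Zeb2, Zeb1, Cdh2 and Snai2 and overlapped Snai1, so the order below Twist1 was resolved only in part.

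**Figure D1:**
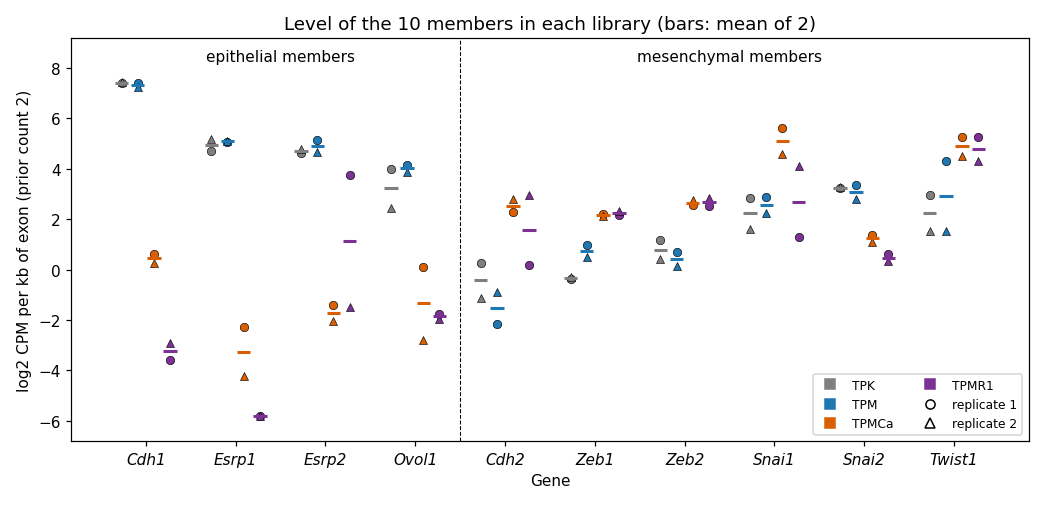
Level of each of the 10 genes in each library, as log2 CPM per kb of exon on the vertical axis, with the 4 models in colour, the replicate as circle or triangle and a bar at the mean of the 2 libraries. The Cdh1 level was between 7.25 and 7.44 in the 4 TPM and TPK libraries and between -3.58 and 0.63 in the 4 TPMCa and TPMR1 libraries, whereas Snai2 alone of the 6 mesenchymal genes lay lower in TPMCa and TPMR1 than in TPM and TPK without overlap.

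The effect of an added PI3K change was examined by comparing TPMCa and TPMR1 with TPM. Cdh1 and Esrp1 fell in both, Ovol1 fell in TPMR1, Zeb2 rose in both, and Zeb1 rose and Snai2 fell in TPMR1. The edgeR quasi-likelihood test called 3 of the 10 genes in TPMCa against TPM (Cdh1 and Esrp1 lower, Zeb2 higher), where 3.02% of the 15875 genes tested were called lower and 0.466% higher. It called 6 of the 10 in TPMR1 against TPM (Cdh1, Esrp1, Ovol1 and Snai2 lower, Zeb1 and Zeb2 higher), where 4.5% were called lower and 1.08% higher. Both comparisons use the same 2 TPM libraries. In TPMCa the calls fell to 1 gene, Cdh1, without TPM replicate 1 and to 2 genes, Cdh1 and Esrp1, without any 1 of the other 3 libraries, and in TPMR1 to the same 2 genes without either TPM library. DESeq2 called 9 of the 10 in TPMCa, all but Twist1, and 7 in TPMR1, where it added Cdh2. Among all 15875 genes tested it also called more than edgeR did, 2546 in TPMCa and 2828 in TPMR1. In edgeR, 3506 and 3671 of these genes had an unadjusted p under 0.05. With only the models compared in the edgeR fit, the calls were 6 in TPMCa and 3 in TPMR1.

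Cdh1 (chr8:106603351-106670246, plus strand, GRCm38 with GENCODE M21, as for the positions below) encodes E-cadherin. It was at 787 and 698 CPM in the TPM libraries, 6.97 and 5.34 CPM in TPMCa and 0.271 and 0.50 CPM in TPMR1. The 3 models did not overlap. Its log2 fold change against TPM was -6.91 (SE 0.40, adjusted p = 0.00258, edgeR) in TPMCa and -10.92 (SE 0.48, adjusted p = 0.0011, edgeR) in TPMR1, or 120.5-fold and 1935-fold lower. The TPMR1 values rest on 7 and 9 reads, above the floor of 3.

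Esrp1 (chr4:11331933-11386783, minus strand), which encodes an epithelial splicing factor, was at 212 and 218 CPM in TPM, 1.20 and 0.223 CPM in TPMCa and had no read in either TPMR1 library. It was therefore at least 1518-fold lower in TPMR1 than in TPM (adjusted p = 0.00522, edgeR), counting 3 reads per library as the floor. In TPMCa its log2 fold change was -8.25 (SE 0.81, adjusted p = 0.0118, edgeR), on 19 and 4 reads.

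Esrp2 (chr8:106130319-106136974, minus strand), its paralog with overlapping exon targets, behaved differently in a single library. It was at 153 and 110 CPM in TPM and 1.52 and 0.946 CPM in TPMCa, but at 58.1 CPM in TPMR1 replicate 1 against 1.45 CPM in replicate 2. No value in TPMCa or TPMR1 reached those of TPM. The log2 fold change was -6.73 (SE 1.60, adjusted p = 0.0745, edgeR) in TPMCa and -2.14 (SE 1.27, adjusted p = 0.369, edgeR) in TPMR1, so neither passed the threshold. Without TPMR1 replicate 1 the change in TPMR1 was -6.50 (adjusted p = 0.00892, edgeR). The same library held 176 CPM of Rbm47, 239 CPM of F11r, 62.1 CPM of Cgn and 26.9 CPM of Llgl2, against 9.06, 51.3, 8.34 and 4.56 CPM in the other TPMR1 library, yet 0.813 CPM of Epcam and 1.55 CPM of Krt8. These 6 genes were picked after their values were seen. Markers of steroidogenic interstitial cells summed to 5112 CPM in that library, 447 CPM in the other TPMR1 library and at most 24.5 CPM elsewhere. Their part in the Esrp2 value was not tested.

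Ovol1 (chr19:5549136-5560646, minus strand) was at 62.5 and 51.0 CPM in TPM, 3.67 and 0.390 CPM in TPMCa and 0.929 and 0.778 CPM in TPMR1. It was lower in all 4 libraries with a PI3K change than in both TPM libraries. The log2 fold change of -6.04 (SE 1.12, adjusted p = 0.0325, edgeR) passed in TPMR1, and that of -4.81 (SE 1.06, adjusted p = 0.0623, edgeR) did not in TPMCa, whose libraries differed 9.43-fold. Without TPMR1 replicate 1 the call in TPMR1 was lost, at adjusted p = 0.0849 from edgeR.

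Among the mesenchymal genes, Zeb2 (chr2:44983632-45117395, minus strand) was at 31.9 and 22.1 CPM in TPM, 117 and 134 CPM in TPMCa and 114 and 142 CPM in TPMR1. The groups did not overlap. It was 4.63-fold higher in TPMCa (log2 fold change 2.21, SE 0.35, adjusted p = 0.0261, edgeR) and 4.74-fold higher in TPMR1 (2.25, SE 0.35, adjusted p = 0.021, edgeR). In TPMCa this call was lost without any 1 of the 4 libraries compared, at adjusted p between 0.112 and 0.145 from edgeR. The overlapping antisense gene Zeb2os held 8 to 56 reads per library against 387 to 2955 for Zeb2, and the strand used in counting is not given in the sources used here.

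Zeb1 (chr18:5591860-5775467, plus strand) was at 20.1 and 14.6 CPM in TPM, 46.8 and 44.2 CPM in TPMCa and 46.5 and 51.0 CPM in TPMR1. Both models with a PI3K change lay above TPM without overlap. The log2 fold change was 1.49 (SE 0.29, adjusted p = 0.0364, edgeR) in TPMR1 and 1.39 (SE 0.29, adjusted p = 0.0548, edgeR) in TPMCa, which did not pass. Without TPMR1 replicate 1 the call in TPMR1 was lost as well, at adjusted p = 0.0562 from edgeR.

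Cdh2 (chr18:16588877-16809246, minus strand) was at 1.69 and 4.23 CPM in TPM, 38.9 and 56.7 CPM in TPMCa and 8.94 and 63.4 CPM in TPMR1. All 4 libraries with a PI3K change exceeded both TPM libraries. The log2 fold change was 4.01 (SE 1.06, adjusted p = 0.0934, edgeR) in TPMCa and 3.61 (SE 1.04, adjusted p = 0.101, edgeR) in TPMR1, and neither passed the threshold in edgeR, while DESeq2 gave adjusted p = 0.000489 and 0.00197. Without TPMR1 replicate 1, which held the 8.94 CPM, the change in TPMR1 was 4.42 (adjusted p = 0.0326, edgeR).

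Snai1 (chr2:167538195-167542814, plus strand) was at 11.9 and 7.55 CPM in TPM, 80.2 and 38.9 CPM in TPMCa and 3.83 and 27.6 CPM in TPMR1. TPMCa lay above TPM, whereas the TPMR1 libraries fell on either side of TPM. The log2 fold change was 2.61 (SE 0.96, adjusted p = 0.181, edgeR) in TPMCa and 0.69 (SE 0.91, adjusted p = 0.705, edgeR) in TPMR1, and the latter turned to -1.34 without TPMR1 replicate 2. Twist1 (chr12:33957671-33959829, plus strand) was at 32.1 and 4.63 CPM in TPM, 63.3 and 37.3 CPM in TPMCa and 63.1 and 32.1 CPM in TPMR1. The TPM libraries differed 6.93-fold, and the log2 fold changes of 1.45 and 1.38 had SE of 0.92 each, with adjusted p = 0.391 and 0.429 from edgeR.

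Snai2 (chr16:14705852-14709385, plus strand) ran opposite to the other mesenchymal genes. It was at 20.7 and 14.1 CPM in TPM, 5.19 and 4.23 CPM in TPMCa and 2.98 and 2.45 CPM in TPMR1. All 4 libraries with a PI3K change lay below TPM. It was 6.39-fold lower in TPMR1 (log2 fold change -2.68, SE 0.44, adjusted p = 0.024, edgeR), and its change of -1.88 in TPMCa (SE 0.42, adjusted p = 0.0653, edgeR) did not pass. SLUG is also made by the basal layer of stratified epithelia, whose keratins Krt5 and Krt14 were at 1281 to 5720 CPM and 1539 to 5380 CPM in TPM and at most 0.89 and 5.57 CPM in TPMCa and TPMR1. These keratins were picked after their values were seen, and their part in the Snai2 level was not tested.

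**Figure D2:**
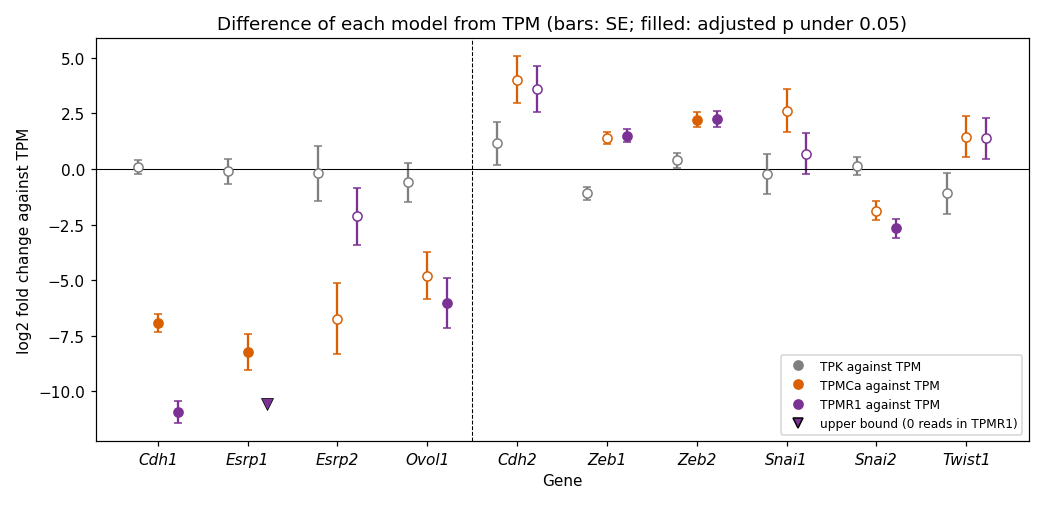
Log2 fold change of each gene against TPM on the vertical axis for TPK, TPMCa and TPMR1, with bars of 1 SE and filled points where the adjusted p from edgeR was under 0.05. Cdh1 lay at -6.91 in TPMCa and -10.92 in TPMR1, the triangle for Esrp1 in TPMR1 is a bound from 0 reads, and Snai2 lay below 0 while the other 5 mesenchymal genes lay above it in TPMCa and TPMR1.

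Markers of other cell types were read beside the mesenchymal genes. Summed over the 8 markers, fibroblast RNA was at 2482 to 6504 CPM in TPM, 8612 to 16760 CPM in TPMCa and 915 to 6768 CPM in TPMR1. The 6 endothelial markers summed to 96.8 to 118 CPM in TPM, 388 to 543 CPM in TPMCa and 157 to 608 CPM in TPMR1, and the 6 macrophage markers to 374 to 803, 874 to 3684 and 186 to 610 CPM. No marker of the 3 lists was called by edgeR in either comparison. At an unadjusted p under 0.05 there were 5 endothelial and 5 macrophage markers in TPMCa and 2 endothelial markers in TPMR1. DESeq2 called 2 endothelial and 4 macrophage markers in TPMCa and 2 endothelial markers in TPMR1. The background was 3506 of 15875 genes at that p in TPMCa and 3671 in TPMR1, with 2546 and 2828 called by DESeq2. The 2 endothelial markers in TPMR1 are too few to set their list apart from this background. The 5 markers of T and B lymphocytes summed to 1.26 to 1.81 CPM in TPM, 13.9 and 141 CPM in TPMCa and 1.08 and 5.002 CPM in TPMR1. In TPMCa their median log2 fold change was 5.89, with none called by edgeR and all 5 at an unadjusted p under 0.05 and called by DESeq2. Of the 6 steroidogenic markers, 1 was called higher in TPMR1 by edgeR and 3 by DESeq2, with a median of 5.85. The mesothelial and the Schwann cell lists each had 1 of 5 markers called lower by edgeR in each comparison, and mesothelial markers summed to 452 to 968 CPM in TPM and 12.2 to 78.9 CPM in TPMCa and TPMR1. The mesothelial list shares Krt19 with the epithelial list, and Krt19 alone was at 939 and 381 CPM in TPM and at most 16.1 CPM in TPMCa and TPMR1. Most of the fall of the mesothelial sum is that of Krt19, and the median log2 fold change of the 5 markers was 0.47 in TPMCa and 0.50 in TPMR1. Within TPMR1, the library with 915 CPM of fibroblast markers held 8.94 CPM of Cdh2 and 3.83 CPM of Snai1, and the library with 6768 CPM held 63.4 and 27.6 CPM, whereas Zeb1 was at 46.5 and 51.0 CPM and Zeb2 at 114 and 142 CPM. The part of these cells in the levels was not tested.

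Set against each other within a library, epithelial and mesenchymal genes changed places between the models. The mean log2 CPM per kb of the 4 epithelial genes minus that of the 6 mesenchymal genes was 3.78 and 4.16 in TPM, 3.50 and 4.07 in TPK, -3.95 and -5.19 in TPMCa and -3.86 and -5.86 in TPMR1. It was positive in all TPM and TPK libraries and negative in all TPMCa and TPMR1 libraries. For the cadherins, Cdh1 minus Cdh2 was 9.59 and 8.15 in TPM, 7.13 and 8.55 in TPK, -1.64 and -2.56 in TPMCa and -3.75 and -5.88 in TPMR1. In TPM there was 772 and 283 times more Cdh1 than Cdh2 RNA per kb, whereas in TPMCa the ratio was 0.32 and 0.169. The means over a model were 8.87 ± 1.02 in TPM, 7.84 ± 0.999 in TPK, -2.10 ± 0.65 in TPMCa and -4.82 ± 1.51 in TPMR1 (SD, n = 2). These are descriptions of chosen genes and carry no test. The epithelial mean differed more between TPM and TPMCa than the mesenchymal mean did. It went from 5.45 and 5.23 in TPM to -0.73 and -2.21 in TPMCa, and the mesenchymal mean from 1.68 and 1.06 to 3.22 and 2.98. The same held for TPMR1, where the epithelial mean was -1.85 and -3.05 and the mesenchymal mean 2.01 and 2.81. In TPMR1 replicate 1 the mesenchymal mean of 2.01 was thus little above the 1.68 of TPM replicate 1.

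**Figure D3:**
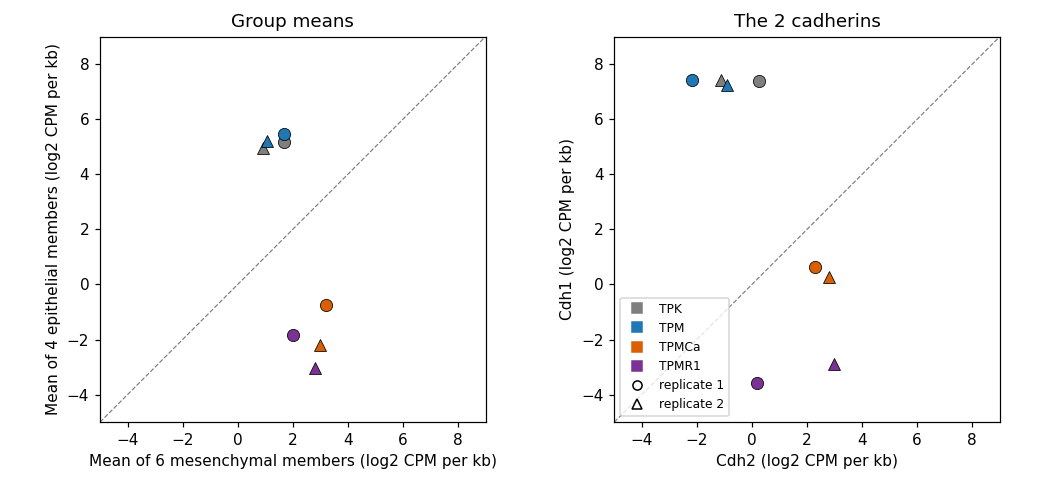
Each library as a point, with the mean level of the 6 mesenchymal genes against that of the 4 epithelial genes at left and Cdh2 against Cdh1 at right, all in log2 CPM per kb, and a dashed line where both are equal. The 4 TPM and TPK libraries lie above the line and the 4 TPMCa and TPMR1 libraries below it in both panels, by 3.50 to 4.16 above and a difference of -3.86 to -5.86 below at left.

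TPK and TPM, the models without a PI3K subunit change, overlapped in Cdh1, at 768 and 792 CPM in TPK, and in Esrp1 (167 and 230 CPM), Esrp2 (107 and 121 CPM) and Ovol1 (55.3 and 19.1 CPM). The log2 fold change of Cdh1 was 0.07 (SE 0.31), and the SE of the other 3 ran up to 1.22 for Esrp2. No gene was called by edgeR in TPK against TPM (0% of 15875), although 1138 genes had an unadjusted p under 0.05. Of all the genes tested, DESeq2 called 241. Zeb1 alone among the 10 had an unadjusted p under 0.05. It was at 7.77 and 8.37 CPM in TPK, below both TPM libraries, with a log2 fold change of -1.10 (SE 0.29, adjusted p = 0.653 from edgeR and 0.036 from DESeq2). Cdh2 was at 9.54 and 3.63 CPM, Zeb2 at 44.5 and 26.7 CPM, Snai1 at 11.7 and 4.88 CPM, Snai2 at 19.1 and 19.3 CPM and Twist1 at 12.6 and 4.55 CPM, all overlapping TPM.

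TPK was also compared with the mean of TPMCa and TPMR1, a contrast that shares its TPMCa and TPMR1 libraries with those above. The mean was taken of the fitted log2 levels of the 2 models, so a fold here is not a ratio of mean CPM. For Cdh1 the mean CPM were 780 in TPK and 3.27 over the TPMCa and TPMR1 libraries. Of the 10 genes, 7 were called: Cdh1, Esrp1, Esrp2, Ovol1 and Snai2 higher in TPK and Zeb1 and Zeb2 lower, where 10.3% of genes tested were called higher and 4.06% lower. Cdh1 was 507.5-fold higher (log2 fold change 8.99, SE 0.33, adjusted p = 0.000185, edgeR). The log2 fold changes were 4.81 for Ovol1, 4.23 for Esrp2 (adjusted p = 0.0452, edgeR), 2.42 for Snai2, -1.83 for Zeb2 and -2.54 for Zeb1, which was 5.83-fold lower in TPK (SE 0.28, adjusted p = 0.00335, edgeR). Cdh2 (-2.66), Snai1 (-1.88) and Twist1 (-2.51) did not pass, with adjusted p = 0.104, 0.187 and 0.109 from edgeR. Without TPK replicate 2 the calls fell to 4, Cdh1, Esrp1, Ovol1 and Zeb1. The Esrp2 call was lost without any 1 of the TPK or TPMCa libraries.

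The 2 models with a PI3K change were compared with each other last. No gene was called by edgeR in TPMR1 against TPMCa (0% of 15875), with 1867 genes at an unadjusted p under 0.05 and 788 of the genes tested called by DESeq2. Cdh1 was 16.1-fold lower in TPMR1 (log2 fold change -4.01, SE 0.38, adjusted p = 0.287 from edgeR), with no overlap, and Esrp1 had 19 and 4 reads in TPMCa against 0 in both TPMR1 libraries (adjusted p = 0.364 from edgeR). DESeq2 called both and Esrp2. Without TPMR1 replicate 2, edgeR called Cdh1, Esrp2 and Snai1. Zeb1 and Zeb2 differed by 1.07-fold and 1.02-fold, with SE of 0.28 and 0.33 on the log2 scale.

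The other genes of the pathway were read from fixed lists, and many genes of the epithelial lists fell in the comparisons in which Cdh1 fell. Of 14 other epithelial transcription factors tested, 7 were called lower in TPMCa and 11 in TPMR1, and none higher, with a median log2 fold change of -6.11 and -7.09 (genes without reads in a model set at their bound), against -0.01 and 0.03 over all genes tested. Ovol2, a relative of Ovol1, was at 4.58 and 3.37 CPM in TPM and had no read in TPMCa, at least 22.3-fold lower (adjusted p = 0.0302, edgeR). Grhl3, which acts in epidermal barrier formation, changed by -7.82 in TPMCa (adjusted p = 0.0163, edgeR). Tfap2c, Elf5 and Foxa2 had no read in TPMR1 and were at least 200-fold, 131-fold and 41.6-fold lower. Klf4, picked after its values were seen, was the factor that was not lower in TPMCa, at 484 and 197 CPM against 242 and 75.8 CPM in TPM.

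Epithelial genes of the ZEB and ESRP programs, such as those for tight junctions, polarity and membrane proteases, gave 18 of 25 called lower in each of the 2 comparisons and none higher, with a median of -6.01 in each. Rab25, which recycles apical membrane proteins, changed by -7.97 in TPMCa (SE 0.44, adjusted p = 0.00258, edgeR), and Ap1m2, of basolateral sorting, and Mal2, of apical transport, by -8.49 and -9.11. In TPMR1 Mal2 had no read and was at least 2751-fold lower, and Spint1, which encodes a protease inhibitor, changed by -10.46 (adjusted p = 0.00252, edgeR).

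Among 15 catenins and cadherin partners, 4 were called lower in each comparison and none higher, with medians of -1.39 and -1.22. Jup, the plakoglobin shared by adherens junctions and desmosomes, changed by -4.60 in TPMCa (SE 0.45, adjusted p = 0.00767, edgeR) and -4.49 in TPMR1 (SE 0.45, adjusted p = 0.00525, edgeR), and the nectin gene Pvrl4 by -5.90 and -7.95. Pvrl1 changed by -4.30 in TPMCa and Pkp4 by -1.71 in TPMR1. Of 12 other cadherins, Cdh3, which encodes P-cadherin, was called lower in TPMR1 (-4.46, SE 0.94, adjusted p = 0.0462, edgeR) and none in TPMCa (2 at an unadjusted p under 0.05 and 1 called by DESeq2), with medians of 0.83 and 0.16. Genes whose splicing the ESRPs control were read at gene level, which does not show exon choice, and 1 of 12 was called in each comparison: Ctnnd1, the p120 catenin, at -1.92 in TPMCa and -1.47 in TPMR1, with medians of the list at -0.65 and -0.20. Over all 15875 genes tested, edgeR called 3.02% lower and 0.466% higher in TPMCa, and 4.5% and 1.08% in TPMR1. A single call among 12 genes lies near these shares and is no result about its list.

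Fewer genes of the mesenchymal lists were called. The counts at an unadjusted p and from DESeq2, here and for the cadherins above, stand beside those over all 15875 genes tested. There, 3506 genes in TPMCa and 3671 in TPMR1 had an unadjusted p under 0.05 in edgeR, and DESeq2 called 2546 and 2828. At an adjusted p under 0.05, edgeR called 3.02% of them lower and 0.466% higher in TPMCa, and 4.5% and 1.08% in TPMR1. The 1 or 2 calls by edgeR in the lists below are too few to set a list apart from these shares. Of 23 other transcription factors of mesenchymal transition, none was called in TPMCa by edgeR (5 at an unadjusted p under 0.05 and 3 called by DESeq2) and 2 were called lower in TPMR1, Snai3 (95 and 35 reads in TPM against 1 and 0 reads) and Foxf2 (-4.44), with medians of 1.25 and 0.28. Of 15 mesenchymal filament, adhesion and matrix genes none was called in either comparison by edgeR, with 4 and 3 at an unadjusted p under 0.05, 3 and 2 called by DESeq2 and medians of 1.20 and 0.38. Vim, which encodes the mesenchymal intermediate filament vimentin and was picked after its values were seen, was at 344 and 176 CPM in TPM, 2592 and 2287 CPM in TPMCa and 262 and 1692 CPM in TPMR1. Of 19 other splicing regulators none was called in TPMCa by edgeR (8 at an unadjusted p under 0.05 and 4 called by DESeq2), and in TPMR1 Qk, which promotes mesenchymal splicing, was called higher (1.32, SE 0.27, adjusted p = 0.0431, edgeR) and Ptbp3 lower (-1.59), with medians of 0.24 and 0.17.

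**Figure D4:**
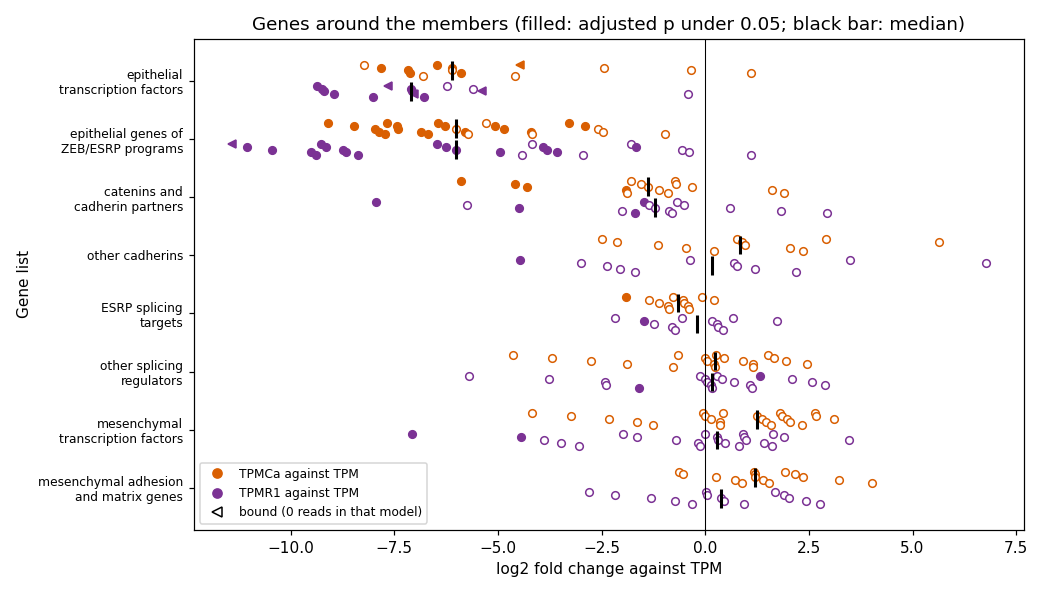
Log2 fold change against TPM on the horizontal axis for the genes of 8 lists, with TPMCa above TPMR1 in each row, filled points for an adjusted p under 0.05 from edgeR, arrowheads for genes with no read in that model and black bars for the medians. The medians of the epithelial transcription factors lie at -6.11 and -7.09 and those of the mesenchymal transcription factors at 1.25 and 0.28.

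The same lists between TPK and the mean of TPMCa and TPMR1 gave 13 of 14 epithelial transcription factors and 22 of 25 epithelial program genes called higher in TPK, among them Spint1 (9.95), with medians of 7.95 and 5.54. Of the catenins and partners 6 of 15 were called higher and 2 lower, of the cadherins 2 of 12 higher (Cdh4 and Cdh3), of the mesenchymal factors 2 of 23 higher (Snai3 and Foxf2) and Tcf4 lower (-2.39), and of the splicing regulators 3 of 19 higher and 2 lower. The counts of the cadherins and mesenchymal factors lie near the 10.3% of all genes called higher and 4.06% called lower in this contrast. None of the 15 mesenchymal adhesion and matrix genes was called by edgeR (3 at an unadjusted p under 0.05 and 3 by DESeq2), and 1 of 12 ESRP targets, Ctnnd1, was higher, also near that background. Over all 15875 genes tested, 5077 had an unadjusted p under 0.05 in this contrast, and DESeq2 called 4427.

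Across the 8 libraries, the 5 genes whose log2 CPM profile lay closest to that of Cdh1 were Cldn4, St14, Esrp1, Spint1 and Epcam, at root mean square distances of 0.43, 0.67, 0.72, 0.76 and 0.76 after centring each gene on its mean. Esrp1 was the 1 gene among them that belongs to the 10. Cldn4, a claudin of tight junctions, was at 484 and 344 CPM in TPM, 2.03 and 1.11 CPM in TPMCa and 0.0774 and 0.167 CPM in TPMR1, the last on 2 and 3 reads. For Cdh2, Ednrb, Akap12, Arhgap20 and Klhl3 were among the closest, at 0.53, 0.65, 0.66 and 0.68. Ednrb, an endothelin receptor, was at 7.16 and 10.2 CPM in TPM, 51.2 and 91.4 CPM in TPMCa and 17.9 and 81.0 CPM in TPMR1. Genes picked for a profile like that of Cdh1 or Cdh2 share its pattern by selection, so their likeness is no separate result.

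The table also counts reads over the 5 microRNA genes shown above, which were picked after their values were seen. They summed to 10 and 11 reads in TPM, 8 and 2 in TPK and 0 in each TPMCa and TPMR1 library, where the floor is 3 reads per library. These polyA libraries count host transcripts and not mature microRNAs, and no test was made.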

How the data were processed

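RNA was extracted with Trizol, and polyA libraries were sequenced on a NovaSeq. The authors aligned the reads with STAR to mm10 and used DESeq2, per the processing notes. The authors deposited raw read counts per gene for all 8 libraries, and a normalized table that was not used here. The counter, annotation and strand setting are not given in the sources used here. The columns of the model TPM carry the name TPMS.

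The counts were filtered with filterByExpr, scaled by TMM and fitted over all 8 libraries with edgeR 4.0.16 (R 4.3.3, quasi-likelihood test), with Benjamini-Hochberg adjustment over the 15875 genes tested and a threshold of 0.05. The steps were checked on simulated data. Levels per kb used a prior count of 2 and the union exon length of GENCODE M21. DESeq2 1.42.0, other scalings, no filter, the compared models alone, a replicate block, a prior count of 0.5 and leaving out each library were the alternatives.

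The 10 genes and the lists were chosen with earlier results of these data known. From each list up to 3 genes with an adjusted p under 0.05 and the largest change were named per comparison, as were up to 5 genes most like Cdh1 and Cdh2. Results on some genes, including a difference of TPK from TPM, are not reported here.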

Additional observations from a re-analysis of the deposited data

How the results depend on the processing

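Of 603 values recomputed under the alternatives, 520 kept their direction and their side of the threshold, and the levels of the epithelial genes minus the mesenchymal genes kept theirs in every model under a prior count of 0.5 and under DESeq2 size factors. The number of the 10 genes called in TPMCa against TPM, 3, became 9 with DESeq2, 5 without the filter on low counts, 6 with those models alone and 1 to 2 when 1 library was left out. In TPMR1 against TPM the 6 became 3 with those models alone and 2 to 6 when 1 library was left out. In TPK against TPM the 0 became 1 with DESeq2, and in TPMR1 against TPMCa the 0 became 3 with DESeq2 and 0 to 3 when 1 library was left out. In TPK against the mean of TPMCa and TPMR1 the 7 became 4 to 9 when 1 library was left out. The replicate numbers are shared by name, and same-numbered libraries did not deviate together (correlations of -0.07 to -0.01), so the replicate block gives no paired result. With it the counts were 4, 5, 0, 7 and 0.

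Log2 fold changes that turned direction when 1 library was left out had these ranges. In TPMR1 against TPM, Snai1 ran from -1.34 without TPMR1 replicate 2 to 1.503 without replicate 1. In TPK against TPM, Cdh1 ran from -0.012 to 0.15 (and was -0.046 with library size alone), Esrp1 from -0.36 to 0.095, Esrp2 from -0.42 to 0.040, Zeb2 from -0.026 to 0.72, Snai1 from -1.005 to 0.26, with 0.12 without TPM replicate 1, Snai2 from -0.11 to 0.43 and Twist1 from -2.03 to 0.87. In TPMR1 against TPMCa, Ovol1 ran from -2.09 to 1.10, Cdh2 from -2.42 to 0.41, Zeb2 from -0.13 to 0.18 and Twist1 from -0.65 to 0.33. The cause was not tested. Library size alone moved the median of all genes from 0.01 to -0.11 in TPK against TPM and from -0.00 to -0.13 in TPK against the mean. Depth limits Cdh1 and Esrp1 in TPMR1, at 0 to 9 reads.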
